A study of Mus musculus with 16 samples.

Results

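Genes of lysosomal enzymes, lysosomal membrane proteins and the transcription factor Tfeb were followed across mouse T cell cultures that had been exposed to Th17 conditions and to a pair of lipid-lowering drugs. The set was a named list of 30 genes, and each gene was read from the array feature that carries its symbol. Of the 30 genes, 29 were measured, out of 30921 genes on the array, and none of the 29 had more than 1 feature. Glb1 was not analysed here. The 29 genes were 9 cathepsins and other proteases, 8 glycosidases and sulfatases, 5 enzymes and activators of lipid breakdown, 6 membrane proteins and Tfeb.

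RNA from 16 samples was hybridised to Affymetrix mouse gene arrays, with 4 arrays in each of 4 groups. All groups were labelled as CD4 T cells from the spleen of wild-type male C54BL/6 mice (spelled as in the labels), aged 8 weeks and cultured for 3 days. Th0 cells were kept out of Th17 conditions and had no drug, and Th17 cells had Th17 conditions without a drug. Eze and Rsv cells had Th17 conditions with 20 µM ezetimibe or 20 µM rosuvastatin. According to the methods, spleen cells were cultured, CD4 T cells were stimulated with antibodies to CD3 and CD28, antibodies that block interferon-γ and IL-4, TGF-β and IL-6, and splenocytes then received the drug. The methods and the text of the study give different durations of the drug. The study also calls the Th0 cells naïve T cells. For cultured spleen cells studied by flow cytometry its methods name wild-type BALB/c mice, another strain than the labels give. A legend of the study speaks of independent experiments, fewer than the arrays of a group, without tying any array to an experiment. Whether the 4 arrays of a group stand for separate mice or cultures is thus not settled, and the p-values cover nothing beyond the spread between arrays.

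Lysosomes are acidic compartments in which proteins, sugars and lipids are broken down. Soluble hydrolases are carried there from the Golgi, mostly by mannose 6-phosphate receptors, and work at the low pH that a proton pump keeps up. Membrane proteins such as LAMP1 and LAMP2 line the compartment, and channels and transporters release its contents. TFEB is known to bind a short palindromic element near the start of many lysosomal genes and to raise their transcription when it enters the nucleus. In T cells, lysosomal proteases and the granules related to lysosomes take part in antigen receptor turnover and killing. Ezetimibe blocks the sterol transporter NPC1L1, and rosuvastatin inhibits HMG-CoA reductase of the mevalonate pathway.

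Because Tfeb belonged to the set, the element was searched in the stretch around each gene start in the RefSeq promoter table (GRCm38.p6). The stretch covered 250 bases before the start and 50 after it, and 26 of the 29 measured genes had an entry. The element TCACGTGA, which reads the same on both strands, was in the stretches of Ctsa, Gla, Mcoln1, Ctsd and Cln3. Parts of these 5 stretches are shown, 5′ to 3′ on the strand of the gene, with the element in capitals, to show where it lies in the 5 genes that hold it. They come from chr2:164833623-164833792 (plus strand, Ctsa), chrX:134601106-134601255 (minus strand, Gla), chr8:3500369-3500518 (plus strand, Mcoln1), chr7:142387903-142387942 (minus strand, Ctsd) and chr7:126583335-126583374 (minus strand, Cln3).
Ctsa: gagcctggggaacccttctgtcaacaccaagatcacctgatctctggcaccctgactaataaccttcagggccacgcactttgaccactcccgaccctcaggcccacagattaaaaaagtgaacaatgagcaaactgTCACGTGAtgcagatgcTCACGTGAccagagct
Gla: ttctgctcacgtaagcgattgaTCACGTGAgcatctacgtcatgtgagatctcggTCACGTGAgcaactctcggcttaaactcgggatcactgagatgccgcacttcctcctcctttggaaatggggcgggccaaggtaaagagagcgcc
Mcoln1: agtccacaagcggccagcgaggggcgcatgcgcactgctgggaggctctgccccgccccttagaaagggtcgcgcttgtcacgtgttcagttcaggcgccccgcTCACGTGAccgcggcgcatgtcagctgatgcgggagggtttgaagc
Ctsd: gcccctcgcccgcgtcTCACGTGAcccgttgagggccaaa
Cln3: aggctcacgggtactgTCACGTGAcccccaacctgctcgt
The element was present in 5 of 26 genes (19.2%), against 1.12% of the 27025 genes of the table. Ctsa carried it at 13 bases before the start and again at base 5 of the transcript, and Gla carried it at 228 and 195 bases before the start. The element began 46 bases before the start in Mcoln1, 99 in Ctsd and 122 in Cln3. These starts are those of the promoter table, which holds 32851 promoters for 27025 genes. For Ctsa and Cln3 the gene start in the array annotation lies outside the stretch searched. The shorter core CACGTG, which lies within TCACGTGA, was in 9 of 26 genes (34.6%), against 8.09% of the genes of the table. Ctsl, Gaa, Lamp1 and Naglu held the core alone, and Lamp1 held it 4 times. Because the element is already known near many lysosomal genes, high shares in a list of such genes were to be foreseen. They are thus not a finding of these data. These are matches of letters and do not show that a factor is bound.

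**Figure D1:**
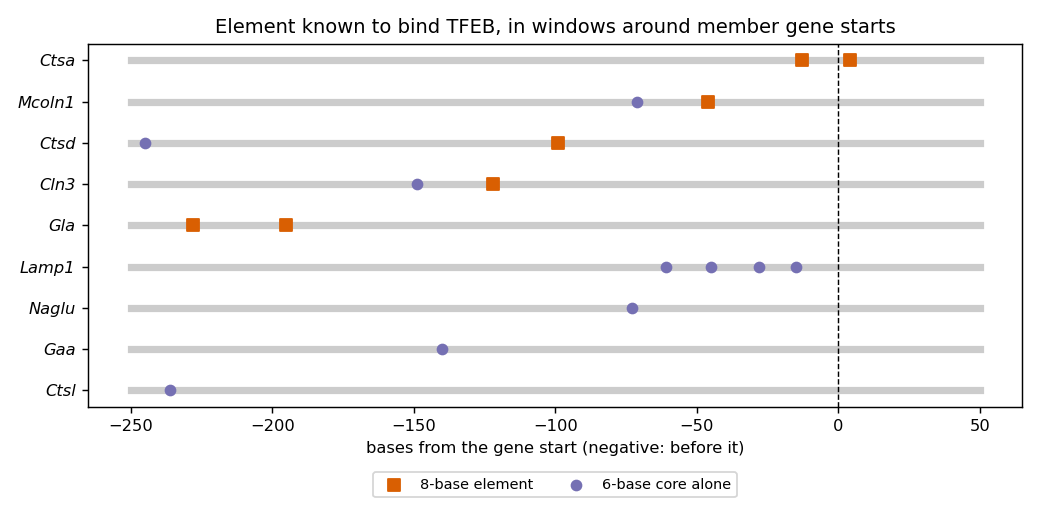
Positions of the 8-base element TCACGTGA (squares) and of its 6-base core alone (circles) in bases from the gene start, for the 9 genes that hold either (rows); the grey bar is the stretch searched. Lamp1 holds the core 4 times and no 8-base element.

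The arrays were alike within groups, with correlations of at least 0.985 over all genes. How well exon control features were told from intron control features on each array was measured by an area under the curve. It ran from 0.870 to 0.876 on Th0 arrays and from 0.876 to 0.881 on Th17 arrays. On Eze arrays it ran from 0.890 to 0.894, and on Rsv arrays from 0.877 to 0.881. This is a measure of signal separation and not of RNA integrity, and its part in the differences was not tested. In each group 1 array had no number in its title, and its name had a prefix that separated it from the numbered arrays. Between these prefixes 120 genes differed, none of them among the 29. Background control features reached 6.71 on the log2 scale at their 95th percentile, and 17 of the 29 genes lay above that level by their mean. Since all genes are compared only with themselves, signals are not set against each other between genes.

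The T cell markers Cd3e, a chain of the antigen receptor complex, and Cd4 were above the background level on all 16 arrays, at 10.22 to 11.07 and 9.88 to 10.66. Markers of other cells moved between groups, counted where limma gave an adjusted p under 0.05. Over all genes, 15.8% passed in either direction in Th17 against Th0, and 21.7% and 26% in Eze and Rsv against Th17. Among genes above the background level these shares were 40.4%, 55.7% and 57.7%. Of 17 B cell genes, 16 had lower signals in Th17 cultures than in Th0 cultures. Against Th17, 13 of the 17 were higher and 1 lower in Eze (14 and 1 once arrays were centred on their medians). In Rsv 7 of the B cell genes were higher and 2 lower (5 and 2 with centred arrays). Their summed linear signal ran from 3115 to 3272 on Th0 arrays, 1346 to 1427 on Th17 arrays, 1674 to 1742 on Eze arrays and 1048 to 1180 on Rsv arrays, and Cd79a was above the background level on the Th0 arrays alone. None of 23 myeloid markers lay above the background level by its mean, and the defining markers Csf1r, Lyz2, Adgre1 and Itgam were below it on all 16 arrays. The summed signal of the myeloid list was nevertheless 383 to 412 on Th0 arrays, 490 to 514 on Th17 arrays, 385 to 407 on Eze arrays and 631 to 673 on Rsv arrays, with 10 genes higher and 1 lower in Rsv against Th17 (6 and 1 once arrays were centred on their medians), led by Lyz2 at 1.36 on the log2 scale. Of 13 markers of cytotoxic and natural killer cells, 6 were higher and 3 lower in Th17 against Th0, 8 were lower in Eze against Th17, and 9 were higher and 1 lower in Rsv against Th17 (6 and 2 with centred arrays). The sum of their signals was 2153 to 2347 on Th0 arrays, 1710 to 1758 on Th17 arrays, 797 to 857 on Eze arrays and 2679 to 3415 on Rsv arrays. The bright gene Gzmb weighs much in this sum, at -1.62 in Th17 against Th0 and -1.31 in Eze and 1.64 in Rsv against Th17. Klrd1 and Klrc1 were among the 6 that were higher in Th17 against Th0, at 3.32 and 2.35. The CD8 genes Cd8a and Cd8b1 are on this list too. Cd8a was at 0.91 in Th17 against Th0, and Cd8b1 at 0.26, which did not pass. Against Th17 they were at 1.25 and 0.71 in Rsv, and at -0.25, which did not pass, and -0.34 in Eze. Cd8a was above the background level on the 4 Rsv arrays alone. Cd8b1 was above it on 3 Th0, 4 Th17, 3 Eze and 4 Rsv arrays. Among 13 T cell genes, 7 were higher and 1 lower in Th17 against Th0, 3 higher and 7 lower in Eze against Th17, and 1 higher and 5 lower in Rsv against Th17, with sums from 8925 to 9140 on Th0 arrays, 10434 to 10760 on Th17 arrays, 8863 to 9442 on Eze arrays and 9457 to 10139 on Rsv arrays. With centred arrays the T cell counts in these comparisons were 6 and 1, 3 and 5, and 1 and 6. Of 10 dendritic cell genes, 1 was higher and 1 lower in Th17 against Th0. In Eze 2 were higher and 1 lower than in Th17, and in Rsv 1 was higher and 1 lower. The part of these cells in the lysosomal differences was not tested, and fewer cells of a type cannot be told apart from less RNA per cell in such cultures.

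Lysosomal genes were more often higher than lower in Th17 against Th0, led by the glycosidase gene Gla and the protease genes Ctsa and Tpp1. With limma and Benjamini-Hochberg adjustment over all genes, 11 of 29 were higher and 3 lower at an adjusted p under 0.05. Over all genes tested, 8.5% were higher and 7.29% lower, or 15.8% in either direction, and among the 5148 genes above the background level 24% were higher and 16.4% lower (40.4% together). The median log2 fold change of the 29 genes was 0.18, against -0.03 over all genes. The groups did not overlap for 12 genes that were higher in Th17 and 4 that were lower, where 10.1% and 9.51% of all genes did so (19.6% together). The median was 0.17 between the arrays without a number and 0.20 between the numbered arrays.

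Against Th17, ezetimibe and rosuvastatin each came with more lysosomal genes lower than higher. In Eze 12 of 29 were lower and 7 higher, where 10.5% and 11.2% of all genes were lower and higher (21.7% in either direction). In Rsv 13 of 29 were lower and 3 higher, where 12.4% and 13.6% of all genes were lower and higher (26% in either direction). Among the genes above the background level, 24.6% were lower and 31.1% higher in Eze (55.7% together), and 32.6% were lower and 25.1% higher in Rsv (57.7% together). The median log2 fold change of the 29 genes was -0.15 in Eze, against -0.04 over all genes, and -0.15 in Rsv, against 0.06 over all genes. With each array centred on its median, 8 of the 29 were higher and 10 lower in Eze (median -0.08) and 3 higher and 14 lower in Rsv (median -0.23). Over all genes the split of 3465 higher and 3241 lower in Eze then became 3999 and 2236, and that of 4194 and 3845 in Rsv became 2602 and 4670. Between the arrays without a number these medians were -0.18 and -0.27, and between the numbered arrays -0.14 and -0.15. The groups did not overlap for 14 lower and 8 higher genes in Eze (13% and 12.4% of all genes, 25.5% together) and for 14 lower and 5 higher genes in Rsv (12.4% and 13.1% of all genes). All 3 comparisons share the Th17 arrays, so that a high reading on those arrays enters each of them, and their values are given side by side without a test of likeness.

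**Figure D2:**
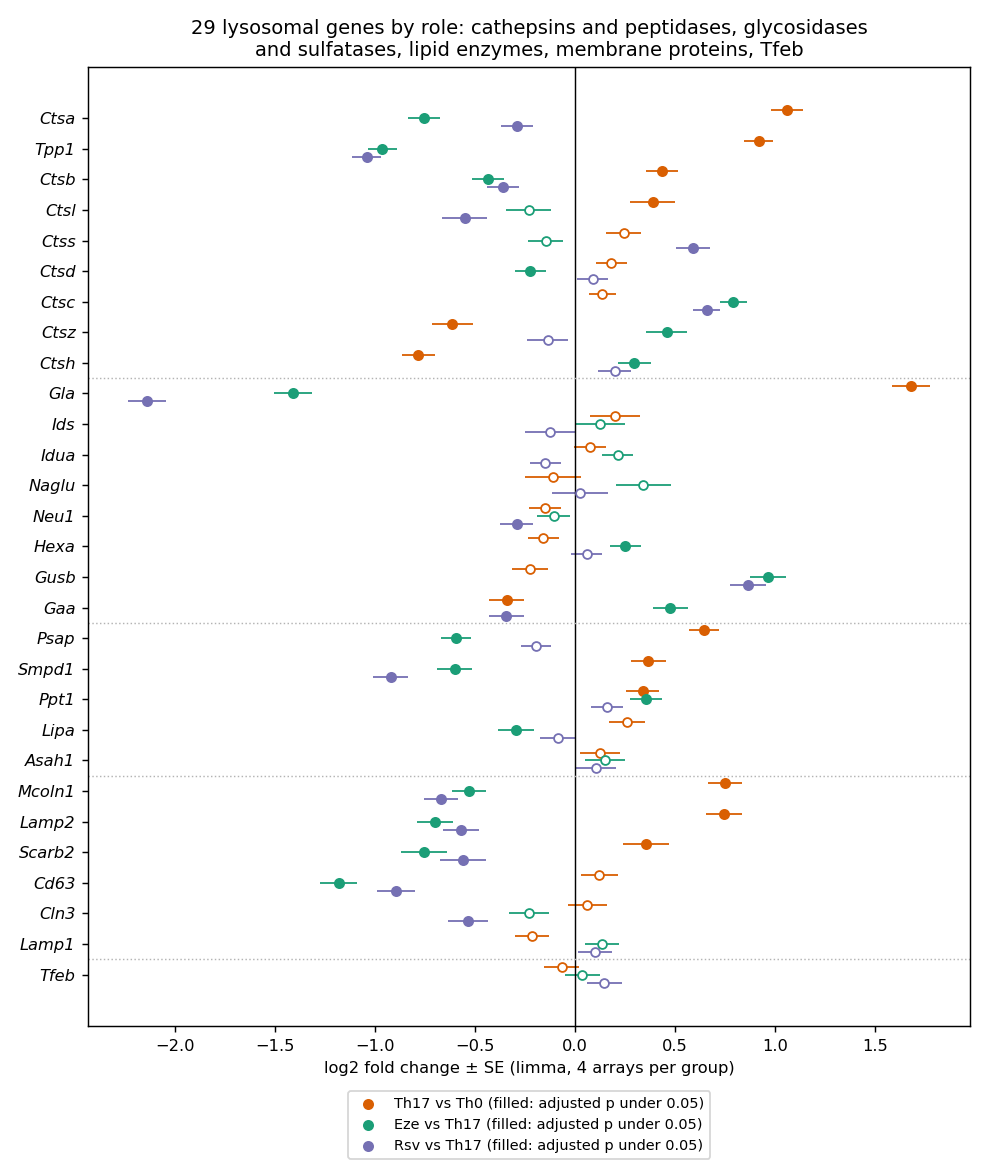
Log2 fold change with its standard error (horizontal axis) of the 29 genes (rows, grouped by role and separated by dotted lines) in Th17 against Th0, Eze against Th17 and Rsv against Th17, 4 arrays per group; filled points passed an adjusted p of 0.05. Gla lies farthest from 0 in all 3 comparisons, at 1.68, -1.41 and -2.14, and Tfeb has no filled point.

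Among the proteases, Ctsa, Tpp1, Ctsb and Ctsl were higher and Ctsh and Ctsz lower in Th17 than in Th0. The log2 signal of Ctsa, a carboxypeptidase that also protects other lysosomal enzymes, was 7.18, 7.13, 7.31 and 7.36 on the Th0 arrays and 8.35, 8.28, 8.32 and 8.25 on the Th17 arrays. Here and below, the numbered arrays 1, 2 and 3 come first and the array without a number last. Ctsa read 7.59, 7.52, 7.58 and 7.49 in Eze and 7.94, 8.05, 8.16 and 7.90 in Rsv. No Ctsa values of any pair of groups overlapped, and the order was Th17, Rsv, Eze and Th0. The log2 fold change was 1.06 in Th17 against Th0 (SE 0.08, limma adjusted p = 1.677e-08), -0.76 in Eze against Th17 (adjusted p = 8.866e-07) and -0.29 in Rsv against Th17 (adjusted p = 0.01028). Tpp1, which removes tripeptides from protein ends, read 8.84, 8.79, 8.78 and 8.87 in Th0 and 9.76, 9.72, 9.77 and 9.70 in Th17. With the drugs it was at 8.77, 8.86, 8.81 and 8.66 in Eze and 8.59, 8.77, 8.77 and 8.65 in Rsv, so that every drug array lay below every Th17 array. The log2 fold change of Tpp1 was 0.92 in Th17 against Th0 (SE 0.07, limma adjusted p = 3.503e-08), -0.96 in Eze against Th17 and -1.04 in Rsv against Th17, each with an SE of 0.07.

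Ctsc and Ctss differed in other ways. Ctsc, the peptidase that activates granzymes, read 7.49, 7.45, 7.57 and 7.48 in Th0 and 7.67, 7.58, 7.64 and 7.64 in Th17. It read 8.37, 8.51, 8.42 and 8.39 in Eze and 8.28, 8.28, 8.32 and 8.27 in Rsv. Both drug groups thus lay above Th17 without overlap, with log2 fold changes of 0.79 and 0.66 (SE 0.07 each, limma adjusted p = 6.615e-08 and 5.879e-07). The difference of 0.14 between Th17 and Th0 did not pass the test, but did with dim genes left out (limma adjusted p = 0.0291). Ctss, which trims the invariant chain of class II molecules, read 7.88, 7.85, 7.95 and 8.18 in Th0 and 8.22, 8.13, 8.13 and 8.35 in Th17. In Eze Ctss was at 7.99, 8.02, 8.05 and 8.17, and in Rsv at 8.73, 8.74, 8.84 and 8.87. Only the Rsv arrays stood clear of all other Ctss values, with a log2 fold change of 0.59 against Th17 (SE 0.09, limma adjusted p = 4.111e-05). Ctss is also active in B cells and myeloid cells, whose summed marker signals are given above.

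Ctsh and Ctsz, which code for an aminopeptidase and a carboxypeptidase, were lower in Th17. Ctsh, which lies below the background level, read 4.96, 4.90, 4.92 and 5.16 in Th0, 4.17, 4.29, 4.06 and 4.26 in Th17, 4.38, 4.57, 4.47 and 4.56 in Eze and 4.42, 4.33, 4.39 and 4.43 in Rsv. All its Th0 arrays were above all others, with a log2 fold change of -0.78 in Th17 against Th0 (SE 0.08, limma adjusted p = 1.177e-06), 0.30 in Eze against Th17 (adjusted p = 0.01273) and 0.20 in Rsv against Th17 (adjusted p = 0.08923). Without Th17 array 3 the adjusted p for Eze was 0.05354. Ctsz read 9.15, 9.24, 9.24 and 8.96 in Th0, 8.50, 8.68, 8.65 and 8.30 in Th17, 9.04, 9.02, 9.07 and 8.83 in Eze and 8.42, 8.43, 8.53 and 8.20 in Rsv. Th0 and Eze arrays lay above Th17 and Rsv arrays for Ctsz, and the array without a number was the lowest in each group. Its log2 fold change was -0.61 in Th17 against Th0 (SE 0.10, limma adjusted p = 0.000247), 0.46 in Eze against Th17 (adjusted p = 0.002556) and -0.14 in Rsv against Th17, which did not pass. Ctsd, the main aspartic protease of lysosomes, read 8.58, 8.60, 8.54 and 8.63 in Th0, 8.78, 8.82, 8.83 and 8.64 in Th17, 8.59, 8.60, 8.49 and 8.51 in Eze and 8.75, 8.96, 8.97 and 8.75 in Rsv. Th17 and Rsv arrays lay above Eze arrays for Ctsd, and the value in Eze against Th17 was -0.22 (SE 0.08, limma adjusted p = 0.04859). That call was lost on leaving out any of 7 of the 8 arrays, all but the Th17 array without a number, with adjusted p values up to 0.1272, and was lost in arrays centred on their medians (adjusted p = 0.3236). Ctsb, a cysteine protease, was 0.43 higher in Th17 than in Th0 on the log2 scale and stood at -0.43 in Eze and -0.36 in Rsv against Th17 (SE 0.08 each). Ctsl, another cysteine protease and below the background level, had log2 fold changes of 0.39, -0.23 and -0.55 in the same order (SE 0.11 each), of which the value for Eze did not pass and the first was lost without Th0 array 1, the unnumbered Th0 array or Th17 arrays 1 or 3 (limma adjusted p up to 0.087).

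Gla, which codes for the α-galactosidase that clears globotriaosylceramide, had the largest differences of the 29 genes in all 3 comparisons. It read 7.01, 7.05, 7.17 and 7.22 in Th0, 8.70, 8.73, 8.81 and 8.95 in Th17, 7.25, 7.42, 7.36 and 7.50 in Eze and 6.44, 6.60, 6.72 and 6.85 in Rsv. No pair of groups overlapped, and the Rsv arrays lay below the Th0 arrays. Gla was 3.21-fold higher in Th17 than in Th0 (log2 fold change 1.68, SE 0.10, limma adjusted p = 4.506e-10). Its log2 fold change against Th17 was -1.41 in Eze (adjusted p = 4.597e-09) and -2.14 in Rsv (adjusted p = 1.591e-11). Of all genes, 0.41%, 0.49% and 0.23% had a difference at least as large in these comparisons.

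The other glycosidases and sulfatases showed smaller or opposite differences, and 7 of the 8 genes of this group, all but Gla, were below the background level. Gusb, the β-glucuronidase, read 6.22, 6.12, 5.99 and 6.28 in Th0, 6.01, 5.82, 5.97 and 5.91 in Th17, 6.78, 6.86, 6.98 and 6.93 in Eze and 6.67, 6.82, 6.97 and 6.71 in Rsv. Both drug groups lay above Th17 and Th0 without overlap, with log2 fold changes of 0.96 in Eze and 0.87 in Rsv against Th17 (SE 0.09 each, limma adjusted p = 1.991e-07 and 7.057e-07). Gaa, which splits glycogen in lysosomes, read 6.58, 6.32, 6.30 and 6.29 in Th0, 6.08, 6.03, 5.98 and 6.02 in Th17, 6.44, 6.53, 6.43 and 6.62 in Eze and 5.57, 5.64, 5.87 and 5.66 in Rsv. Eze arrays were higher and Rsv arrays lower than Th17 arrays for Gaa, at 0.48 and -0.34 on the log2 scale (SE 0.09 each, limma adjusted p = 0.0003968 and 0.005782), and Th17 was -0.34 against Th0. Idua, an iduronidase of heparan and dermatan sulfate breakdown, read 6.67, 6.56, 6.57 and 6.60 in Th0, 6.78, 6.63, 6.71 and 6.57 in Th17, 6.90, 6.81, 6.94 and 6.89 in Eze and 6.50, 6.65, 6.58 and 6.37 in Rsv. Idua did not pass the test in the comparisons with Th17, although its Eze arrays lay above all other arrays. Its value of 0.21 in Eze against Th17 (limma adjusted p = 0.06224) passed with the arrays with and without a number as a block (0.04928) and with centred arrays (0.0386). Hexa, the α subunit of hexosaminidases, was at 0.25 in Eze against Th17 (limma adjusted p = 0.02258), a call lost without any of the Th17 arrays 3 and unnumbered or the Eze arrays 3 and unnumbered (adjusted p up to 0.08277). Neu1, the sialidase that Ctsa protects, was at -0.29 in Rsv against Th17 (limma adjusted p = 0.01179). Ids and Naglu, enzymes of heparan sulfate breakdown, passed in none of the 3 comparisons, though Naglu passed in Eze against Th17 with array weights (limma adjusted p = 0.04021).

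Lipid breakdown genes were higher in Th17 for Psap, Smpd1 and Ppt1. Psap, whose product is cut into the saposins that present lipids to hydrolases, read 8.63, 8.58, 8.60 and 8.52 in Th0, 9.27, 9.25, 9.26 and 9.13 in Th17, 8.65, 8.71, 8.67 and 8.49 in Eze and 9.08, 9.10, 9.04 and 8.90 in Rsv. Eze arrays overlapped Th0 arrays, while Rsv arrays lay between them and the Th17 arrays. The log2 fold change of Psap was 0.64 in Th17 against Th0 (SE 0.08, limma adjusted p = 5.044e-06), -0.60 in Eze against Th17 (adjusted p = 8.796e-06) and -0.19 in Rsv against Th17 (adjusted p = 0.06956, or 0.02735 with the arrays with and without a number as a block). Smpd1, the acid sphingomyelinase, whose mean lay below the background level, read 6.42, 6.46, 6.51 and 6.41 in Th0, 6.83, 6.72, 6.90 and 6.82 in Th17, 6.17, 6.12, 6.20 and 6.36 in Eze and 5.77, 6.08, 5.98 and 5.75 in Rsv. Each drug group lay below Th0 as well as Th17, at -0.60 and -0.92 on the log2 scale against Th17 (SE 0.09 each, limma adjusted p = 3.531e-05 and 2.288e-07). Ppt1, a palmitoyl thioesterase, was 0.34 higher in Th17 than in Th0 and a further 0.36 higher in Eze than in Th17 (SE 0.08 each). Lipa, the acid lipase of cholesteryl ester breakdown, was at -0.30 in Eze against Th17 (limma adjusted p = 0.02314), a call lost without Th17 array 3 or the unnumbered Th17 array, or without Eze arrays 1 or 3 (adjusted p up to 0.06772), and with centred arrays (adjusted p = 0.1485). Asah1, the acid ceramidase, passed in none of the comparisons.

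Of the 6 membrane proteins, 3 were higher and none lower in Th17 against Th0, 4 were lower in Eze and 5 were lower in Rsv against Th17, with none higher. Of all genes, 8.5% were higher in Th17 against Th0, and 10.5% and 12.4% were lower in Eze and Rsv against Th17. Among genes above the background level, as 5 of these 6 were, the shares were 24%, 24.6% and 32.6%. Mcoln1, the lysosomal calcium channel TRPML1, read 6.55, 6.78, 6.55 and 6.60 in Th0, 7.51, 7.26, 7.36 and 7.36 in Th17, 6.90, 6.92, 6.80 and 6.75 in Eze and 6.80, 6.67, 6.77 and 6.57 in Rsv. The Th17 arrays stood above all others for Mcoln1, with log2 fold changes of 0.75 against Th0 (SE 0.08, limma adjusted p = 3.064e-06), -0.53 in Eze and -0.67 in Rsv against Th17 (adjusted p = 0.0001104 and 8.129e-06). Lamp2, which also serves chaperone-mediated autophagy, read 7.23, 7.16, 7.31 and 7.50 in Th0, 8.10, 7.94, 7.92 and 8.23 in Th17, 7.27, 7.45, 7.31 and 7.35 in Eze and 7.47, 7.49, 7.52 and 7.42 in Rsv. The Th17 arrays again stood above all others, at 0.74 against Th0, with -0.70 in Eze and -0.57 in Rsv against Th17 (SE 0.09 each, limma adjusted p = 6.428e-06, 8.981e-06 and 8.782e-05). Its relative Lamp1 read 7.85, 7.89, 7.86 and 8.15 in Th0, 7.63, 7.66, 7.75 and 7.84 in Th17, 7.99, 7.84, 7.78 and 7.82 in Eze and 7.83, 7.79, 7.89 and 7.77 in Rsv. Lamp1 passed in none of the comparisons of the main fit, with -0.22 in Th17 against Th0 (SE 0.08, limma adjusted p = 0.1055, or 0.01559 with dim genes left out).

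Cd63, a tetraspanin of lysosomes and secretory granules that was below the background level, read 5.22, 5.57, 5.24 and 5.43 in Th0, 5.47, 5.53, 5.42 and 5.53 in Th17, 4.25, 4.41, 4.30 and 4.26 in Eze and 4.54, 4.77, 4.64 and 4.41 in Rsv. Th0 and Th17 overlapped and both lay above the drug groups, with log2 fold changes of -1.18 in Eze and -0.90 in Rsv against Th17 (SE 0.09 each, limma adjusted p = 3.025e-08 and 8.492e-07). Scarb2, the receptor that carries glucocerebrosidase to the lysosome, was at -0.75 in Eze and -0.56 in Rsv against Th17 (limma adjusted p = 6.488e-05 and 0.001137). Its log2 fold change of 0.36 in Th17 against Th0 (adjusted p = 0.04259) was lost on leaving out Th0 arrays 1, 2 or 3, Th17 arrays 1 or 3 or the unnumbered Th17 array, with adjusted p up to 0.1382, and with centred arrays (adjusted p = 0.05157). Cln3, a membrane protein mutated in a juvenile storage disease of humans, was at -0.54 in Rsv against Th17 (SE 0.10, limma adjusted p = 0.0004542) and at -0.23 in Eze (adjusted p = 0.1185, or 0.02594 with dim genes left out).

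Tfeb itself did not pass the test in any comparison. It lay below the background level and read 4.59, 4.57, 4.38 and 4.23 in Th0, 4.29, 4.46, 4.36 and 4.39 in Th17, 4.41, 4.47, 4.47 and 4.29 in Eze and 4.59, 4.47, 4.47 and 4.55 in Rsv. The Th0 arrays spread from 4.23 to 4.59, and the groups overlapped except that the Rsv arrays lay above the Th17 arrays. The log2 fold change was -0.07 in Th17 against Th0, 0.04 in Eze and 0.14 in Rsv against Th17 (SE 0.09 each, limma adjusted p = 0.7094, 0.8436 and 0.2533). The arrays measure the RNA of Tfeb, not the place or the phosphorylation of its protein.

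**Figure D3:**
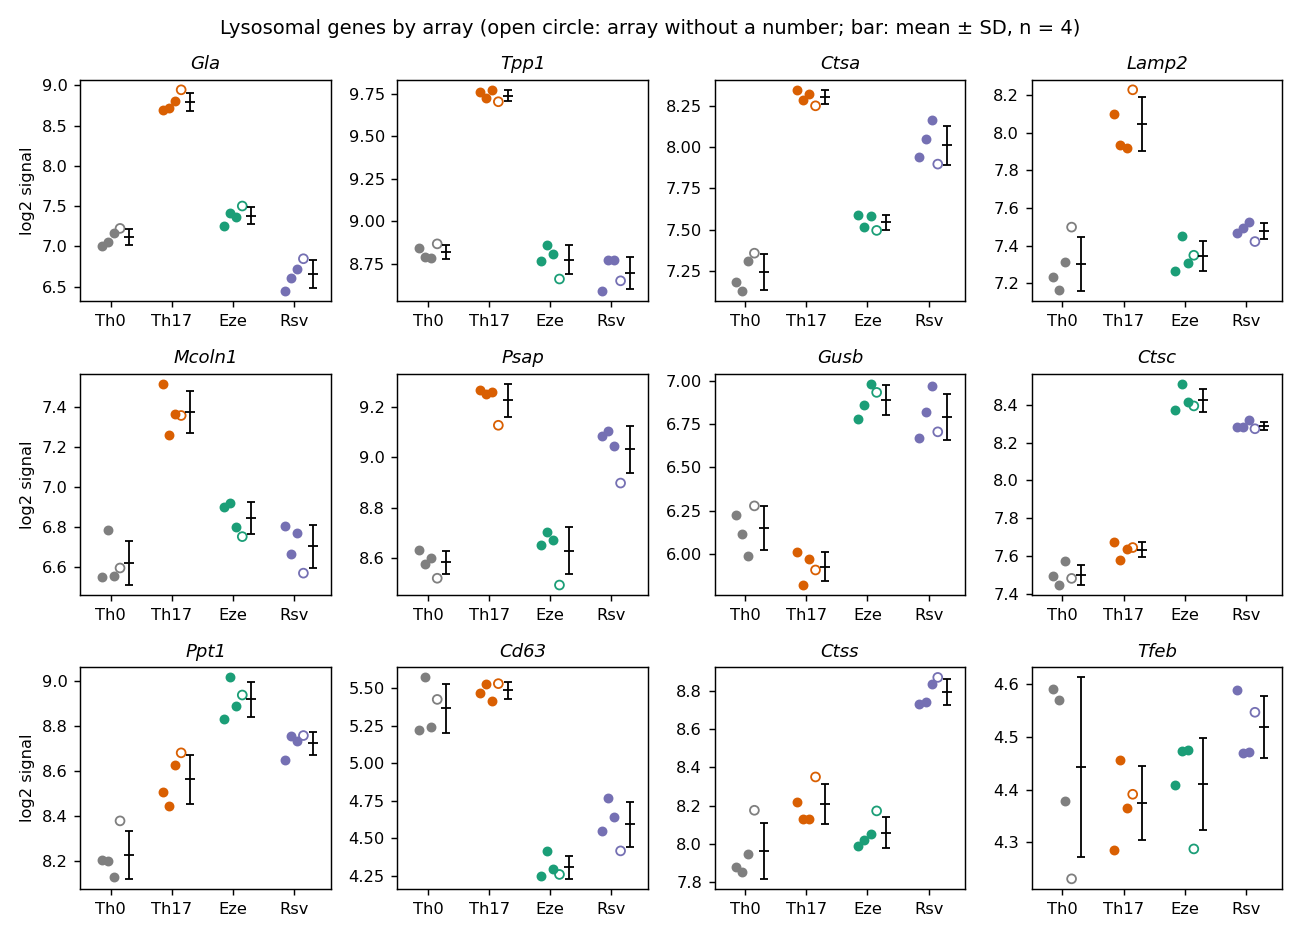
Log2 signal (vertical axis, scaled for each gene) of 12 of the genes on each of the 16 arrays, by group; filled circles are numbered arrays, open circles the array without a number, and bars the mean ± SD (n = 4). The Th17 arrays stand above all others for Gla, Tpp1, Ctsa, Lamp2, Mcoln1 and Psap. Both drug groups stand above Th17 for Gusb and Ctsc, and only Rsv stands apart for Ctss.

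The drugs were given at the same dose and set against each other. Higher in Eze against Rsv were 7 of 29, and lower were 5, against 13.3% and 15.2% of all genes (28.5% in either direction). Among the genes above the background level these shares were 33.4% and 14.3% (47.7% together), and 9 of the 29 lay higher and 5 lower without overlap, against 13.7% and 15% of all genes (28.6% together). They had a median log2 fold change of 0.10 against -0.08 over all genes. With each array centred on its median, 15 genes were higher and 3 lower, and over all genes the split of 4117 higher and 4687 lower became 6796 and 2010, so the count of either direction here rests on the scale. Gaa was 0.82 higher (SE 0.09), Gla 0.73 higher (SE 0.10) and Ctsz 0.60 higher (SE 0.10, adjusted p = 0.000276), with no overlap for any of them. Idua was 0.36 higher (SE 0.08, adjusted p = 0.001998) and Smpd1 0.32 higher (SE 0.09, adjusted p = 0.01008), again without overlap. Lower in Eze than in Rsv were Ctss at -0.74 (SE 0.09), Ctsa at -0.47 (SE 0.08), Psap at -0.40 (SE 0.08) and Ctsd at -0.31 (SE 0.08, adjusted p = 0.006038). The value of Ctsd did not pass with centred arrays (adjusted p = 0.2356). Calls for Ctsl at 0.32, Cln3 at 0.31 and Cd63 at -0.29 were each lost on leaving out single arrays, 6, 4 and 5 of the 8 respectively. For the 17 genes that did not pass, the test does not show that the drugs act alike. All 8 glycosidases and sulfatases had positive differences, of 0.10 to 0.82, and 3 of them passed. Of these 8 genes only Gla lay above the background level. Over all 30921 genes, 12195 had positive differences, and 3378 of the 5148 above that level did. The myeloid markers were lower in Eze than in Rsv for 18 of 23 genes (11 with centred arrays) and the cytotoxic markers for 10 of 13, while the B cell markers were higher for 12 of 17, and their part in these differences was not tested.

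**Figure D4:**
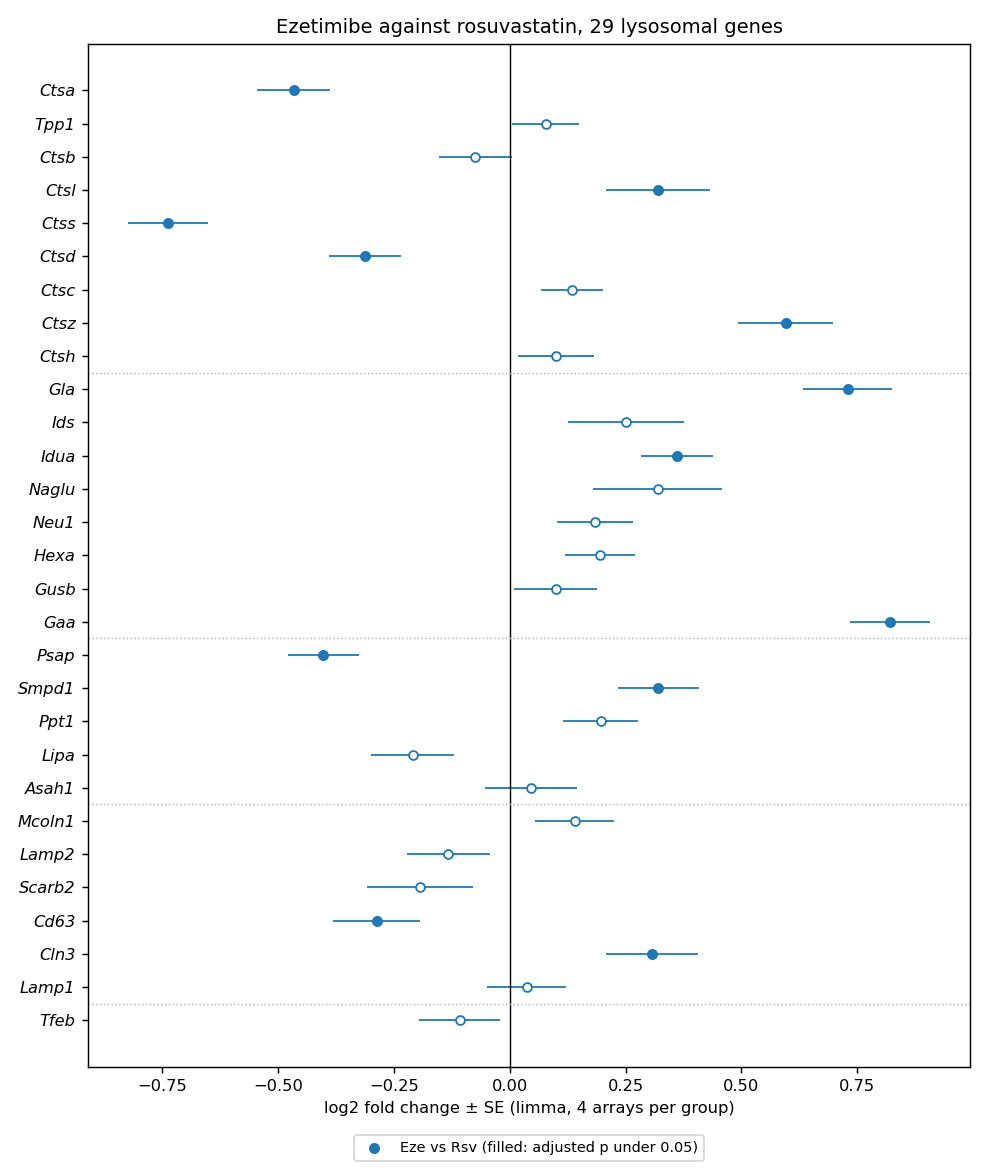
Log2 fold change with its standard error (horizontal axis) of Eze against Rsv for the 29 genes (rows, in the same order and with the same groups of roles as in the plot of all comparisons), 4 arrays per group; filled points passed an adjusted p of 0.05. Gaa lies highest at 0.82 and Ctss lowest at -0.74.

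The drug-treated cultures also differed from Th0. In Eze 5 of 29 genes were higher and 4 lower, where 11.7% and 10.9% of all genes were (22.5% in either direction), and in Rsv 7 were higher and 8 lower, where 13.4% and 12.8% were (26.2% in either direction). With centred arrays 9 were higher and 2 lower in Eze, and the split over all genes of 3603 higher and 3360 lower became 4684 and 1806. Without the unnumbered Th0 array or without Eze array 3, 2 were lower in Eze. Among the genes above the background level, 32.6% were higher and 19.6% lower in Eze (52.2% together) and 27.9% higher and 30.6% lower in Rsv (58.5% together). Without overlap were 13 genes in Eze against Th0, where 27.2% of all genes were, and 16 in Rsv against Th0, where 25.5% were. Ctsc was 0.93 higher in Eze and 0.79 in Rsv than in Th0 (SE 0.07 each), and Gusb 0.74 and 0.64 (SE 0.09 each). Cd63 stood at -1.06 and -0.77 (SE 0.09 each). Gla, the gene with the largest difference between Th17 and Th0, was at 0.27 in Eze (limma adjusted p = 0.05033, or 0.01713 with the arrays with and without a number as a block, with no overlap) and at -0.46 in Rsv (adjusted p = 0.00121). The log2 fold change of Tpp1 against Th0 was -0.05 in Eze and -0.12 in Rsv, and that of Lamp2 0.04 and 0.17, none of which passed. By group mean, 13 of the 29 genes were highest in Th17, 9 in Eze, 4 in Th0 and 3 in Rsv, and 9 each were lowest in Th0 and in Rsv, 6 in Th17 and 5 in Eze. The same count was not made over all genes or with centred arrays, so it is not read as particular to these genes.

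Other lysosomal genes were read from lists of known function. Beside these lists and those that follow, 15.8% of all genes passed in either direction in Th17 against Th0. In Eze and Rsv against Th17, 21.7% and 26% did. Among all genes above the background level these shares were 40.4%, 55.7% and 57.7%. Of 31 further hydrolases and activators, 14 were higher and 1 lower in Th17 against Th0, with a median log2 fold change of 0.22. Among them Ctsw, a cysteine protease of cytotoxic cells, was 2.32 higher, Ctse 1.18 higher and Ctsf 0.89 higher. In Eze 1 was higher and 11 lower than in Th17 (median -0.11), with Ctsw at -1.57, Ctse at -1.28 and Npc2, which hands cholesterol to NPC1, at -1.18. In Rsv 3 were higher and 12 lower (median -0.18), with Galc, which splits galactosylceramide, at -1.60 and the acid phosphatase Acp5 at -1.10. Of 23 further membrane proteins, 5 were higher and 1 lower in Th17 against Th0, 3 higher and 6 lower in Eze and none higher and 9 lower in Rsv against Th17. Cd68, a membrane glycoprotein used as a macrophage marker, was at 0.45, -1.26 and -1.52 in these comparisons, and the peptide transporter Abcb9 at -0.80 in Eze and -1.04 in Rsv.

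The proton pump and the sorting genes were counted in the same way. Of the 16 pump genes, 12 lay above the background level. In the comparisons in the order just given, 37.5%, 43.8% and 50% of the pump genes passed, below the shares of all genes above that level. Of the sorting genes 33.3%, 60% and 20% passed. Of 16 subunits and accessory proteins of the pump, 2 were higher and 4 lower in Th17 against Th0, 6 higher and 1 lower in Eze and 3 higher and 5 lower in Rsv against Th17. With centred arrays these counts were 2 and 1, 6 and 1, and 1 and 5. Atp6ap2, an accessory subunit, was at -0.41, 0.83 and 0.38 in the 3 comparisons and Atp6v1d at 0.50, -0.51 and -0.47. Of 15 sorting genes, 2 were higher and 3 lower in Th17, 7 higher and 2 lower in Eze and 1 higher and 2 lower in Rsv (2 and 1, 7 and 1, and 1 and 5 with centred arrays). The mannose 6-phosphate receptor genes went opposite ways in Eze against Th17, Igf2r at -0.93 and M6pr at 0.40, and Igf2r was at -1.07 in Rsv. Of 6 protease inhibitors, 2 were higher and 2 lower in Th17, none higher and 3 lower in Eze and 1 higher and 4 lower in Rsv. Serpinb1a, a serpin best known as an inhibitor of granule serine proteases, was at 3.79 in Th17 against Th0, -2.88 in Eze and -2.34 in Rsv against Th17. Among the 4 cystatins, which inhibit cysteine proteases, the values in Th17 against Th0 were smaller, from -0.43 for Cst7 to 0.51 for Cst3. Cst7, which inhibits cathepsins C and others, was at -0.82 in Eze and -1.36 in Rsv.

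Among 21 relatives and regulators of Tfeb, 3 were higher in Th17 than in Th0, namely Rragd at 1.16, Zkscan3 at 0.34 and Tfe3 at 0.27. In Eze 9 were higher and 2 lower than in Th17, with Rragb at 1.32, Fnip2 at 0.69 and Rragd at 0.58. In Rsv 3 were higher and 4 lower, with Zkscan3, known from human cells as a repressor of autophagy genes, at -0.73, Rragb at 0.63 and Fnip1 at -0.59. With centred arrays none were higher and 5 lower in Rsv. Rragb and Rragd code for GTPases that bring mTORC1 to the lysosome. Autophagy genes were higher in 11 and lower in 2 of 29 cases in Th17 against Th0, with Calcoco1 at 0.94, the kinase gene Ulk1 at 0.85 and Map1lc3b, which coats autophagosomes, at 0.75. Against Th17, 1 was higher and 13 lower in Eze (median -0.26) and none higher and 18 lower in Rsv (median -0.34). Calcoco1 was at -1.68 in Eze and -1.22 in Rsv, Ulk1 at -0.97 and -0.68 and the mitophagy receptor gene Bnip3 at -0.96 and -2.21. With centred arrays the autophagy counts were 2 higher and 13 lower in Eze and none higher and 18 lower in Rsv.

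**Figure D5:**
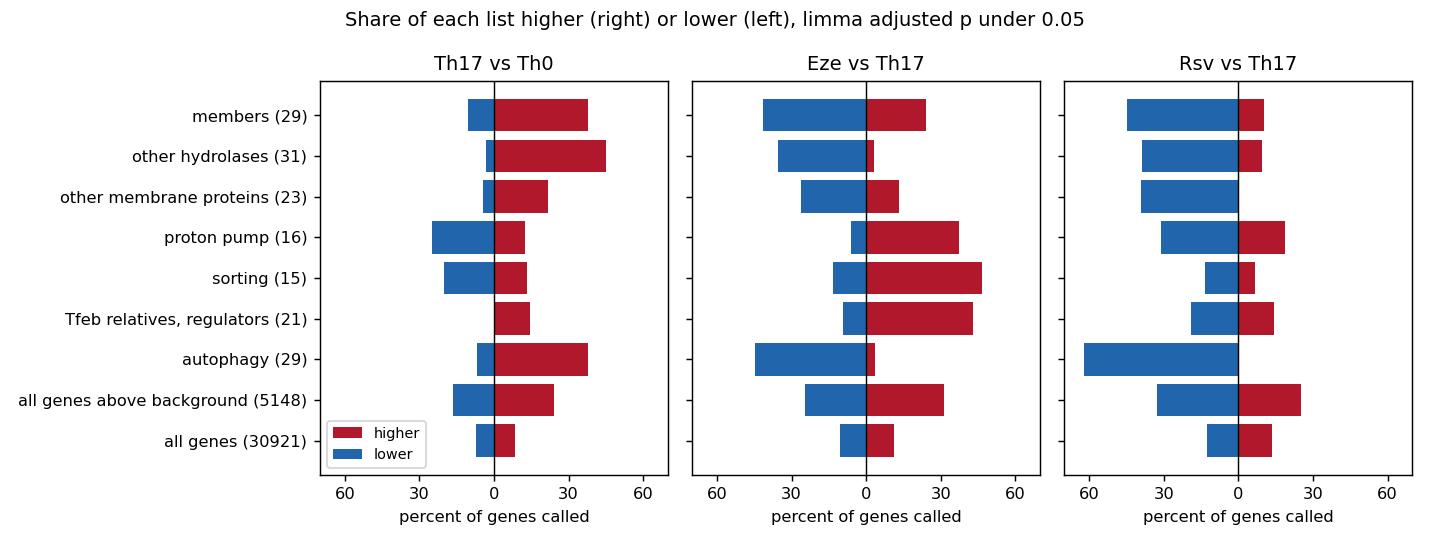
Percent of genes (horizontal axis) of each list (rows, number of measured genes in brackets) that were higher (right of 0) or lower (left of 0) at an adjusted p under 0.05 in each comparison, beside all genes and all genes above the background level. Autophagy genes reach 62.1% lower in Rsv against Th17, where 12.4% of all genes and 32.6% of those above the background level were lower.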

How the data were processed

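RNA was measured on 16 arrays whose columns name the Mouse Gene 2.0 ST design, although the methods speak of sequencing. The deposited values are log2 signals per feature that the authors had, per the methods, preprocessed and quantile normalized. The sources used here do not give the genome build of the deposited annotation. The values were used as deposited, and 0 cells differed between the data table and the series matrix. Medians over all genes ran from 4.09 to 4.37 between arrays. Each of 30921 gene symbols was read from its brightest main feature. Group means over all 16 arrays were modelled in limma 3.58.1 under R 4.3.3 (lmFit, contrasts.fit, eBayes), and p-values were adjusted by Benjamini-Hochberg over all genes with a threshold of 0.05. The fit was tested on simulated data. Precision is limited by 4 arrays per group, and the standard error of a log2 difference had a median of 0.11. No overlap means that every array of 1 group lay above every array of the other, the smallest exact Mann-Whitney p (0.0286, two-sided) that 4 against 4 arrays can give. The background level is the 95th percentile of the mean signals of 23 antigenomic control features. Motifs were searched in the RefSeq promoter table of GRCm38.p6, and 19 of the 29 genes have a start or end in the deposited annotation that is also in the RefSeq gene table.

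The genes and lists were chosen with earlier results of these data known, and no list was tested as a set. Values by array are given for up to 4 genes per direction with the largest differences among those that passed without overlap in Th17 against Th0, Eze or Rsv against Th17 and Eze against Rsv, and for Tfeb, Lamp1 and Lamp2; of the other lysosomal lists, mostly the 3 largest that passed are named. Single values of a few genes on these lists are not reported here. M6pr, Cd8a, Cd8b1 and the drug values of genes named for another comparison were added after their values were seen. Alternatives were centring each array on its median, leaving out dim genes, the mean of all features, the series matrix values, fits on 2 groups alone, a replicate block, a block for arrays without a number, array weights, an exact Mann-Whitney test without adjustment, leaving out each array and a shorter promoter stretch. A least fold change, a variance trend and the numbered arrays alone were added after seeing the data. Same-numbered arrays did not deviate together, so numbers were not taken to pair arrays.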

Additional observations from a re-analysis of the deposited data

Results flagged for a closer look

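In 116 sets of 4 arrays, 1 for each gene and group, an array lay farther from the others than Dixon's 95% critical value in 3, where chance passes about 1 in 20. Gaa read 6.58 on Th0 array 1 against 6.29 to 6.32 on the other Th0 arrays, a gap of 0.871 of the range. Psap read 9.13 on the unnumbered Th17 array against 9.25 to 9.27 (0.892 of the range). Lamp1 read 8.15 on the unnumbered Th0 array against 7.85 to 7.89 (0.858 of the range).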

How the results depend on the processing

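No called difference of a single member changed sign under the alternatives. The median log2 fold change of the members in Rsv against Th0, -0.07, became 0.02 without the unnumbered Rsv array and 0.17 with dim genes left out. Centring each array on its median gave 15 higher and 3 lower in Eze against Rsv and 9 higher and 2 lower in Eze against Th0. It turned the sign of the median of all genes in all 6 comparisons, from -0.08 to 0.08 in Eze against Rsv and from -0.07 to 0.03 in Eze against Th0. The calls over all genes, higher and lower, became 3999 and 2236 in place of 3465 and 3241 in Eze against Th17, 2602 and 4670 in place of 4194 and 3845 in Rsv against Th17, 4684 and 1806 in place of 3603 and 3360 in Eze against Th0 and 3145 and 4481 in place of 4142 and 3963 in Rsv against Th0. Leaving out dim genes left 17 of the 29, of which 3 were higher in Eze against Th17, 1 lower in Eze against Th0 and 3 lower in Rsv against Th0. The groups then did not overlap for 14 in Eze against Th17, 11 in Rsv against Th17, 8 in Eze against Rsv, 6 in Eze against Th0 and 10 in Rsv against Th0, since fewer genes were tested. In Eze against Th0, 8 were higher with the arrays of both groups alone, 9 with array weights, 8 with a variance trend and 8 with the exact Mann-Whitney test, which gave 5 higher in Rsv against Th17. A least log2 fold change of 0.26, added after seeing the data, gave 6 higher in Th17 against Th0, 2 higher in Eze against Th17, 6 lower in Rsv against Th17, 3 higher and 1 lower in Eze against Rsv, 3 higher and 1 lower in Eze against Th0 and 5 lower in Rsv against Th0. The cause of the other changes was not tested.

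With 1 array left out, the genes lower in Eze against Th0 numbered 2 to 4, with 2 without the unnumbered Th0 array or without Eze array 3. Neu1 lost its call there without Th0 arrays 2, 3 or the unnumbered one or without Eze array 3 or the unnumbered one, and Scarb2 without the unnumbered Th0 array or Eze arrays 2 or 3. In Eze against Rsv, Ctsl lost its call without Eze arrays 1, 2 or 3 or Rsv arrays 1, 2 or 3, Cd63 without Eze arrays 1, 3 or the unnumbered one or Rsv arrays 2 or 3, and Cln3 without Eze arrays 1 or 3 or Rsv array 1 or the unnumbered one. Ctsl lost its call in Th17 against Th0 without array 1 or the unnumbered array of Th0 or arrays 1 or 3 of Th17, and Ctsd in Rsv against Th0 without Rsv arrays 2 or 3 (adjusted p = 0.05188 and 0.05055).

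The replicate numbers did not pair the arrays. Deviations of same-numbered arrays correlated at -0.12 to 0.10, and 3 of 12 numbered arrays correlated best with their own number. With the replicate block, 12 genes were higher and 3 lower in Th17 against Th0, where Ctss and Lipa were gained (adjusted p = 0.0308 and 0.0445) and Scarb2 was lost (0.0528). Ctsd in Eze against Th17 (0.0565) and Ctsl in Eze against Rsv (0.0674) were lost, and Psap in Rsv against Th17 (0.0447) and Gla and Ids in Eze against Th0 (0.0122 and 0.0459) were gained. With the arrays with and without a number as a block, Ctss in Th17 against Th0 (0.01864), Idua in Eze against Th17, Psap in Rsv against Th17 and Gla and Ids in Eze against Th0 (0.04642 for Ids) were gained. Dim signals and 4 arrays per group limit what small differences can show.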
